A study of Mus musculus with 4 samples.

Results

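Galectins, annexins and S100 proteins are described here in early T lineage progenitors (ETP), the most immature cells of the T lineage in the thymus. The 10 genes are *Lgals1*, *Lgals3*, *Lgals9*, *Anxa1*, *Anxa2*, *Anxa5*, *Anxa6*, *S100a4*, *S100a6* and *S100a10*, out of 23361 genes in the deposited table, and each has a value in all 4 libraries. They were picked by name after *Lgals3* had been seen to be higher in old ETP, to show whether related calcium-binding and lectin genes follow it. The difference of *Lgals3* between the ages is therefore a description and is given no test.

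RNA was sequenced from 2 young and 2 old libraries of ETP, sorted as Lin- CD44+ CD25- CD117+ cells from the thymus of female C57BL6 mice, with no genetic change or treatment named in the labels. The labels give 4 to 6 weeks of age for the young mice and 72 weeks for the old, while the table calls the old condition 20m. According to the paper, the young adult mice came from the colony of the university and the old mice from the National Institute on Aging, so age and colony of origin cannot be told apart. Nothing in the sources used here ties a library to 1 animal or to a pool, and a p-value here reflects the spread among the libraries alone, which may be technical. Depth ran from 4839341 to 16658864 assigned fragments per library, with replicate 1 the deeper library at each age and old replicate 2 the shallowest of the 4. *Kit*, which encodes CD117, was at 764 to 1096 normalized CPM (counts scaled to library size by TMM) in young and 936 to 945 in old ETP. *Il2ra*, which encodes CD25, was at 22.9 to 39.9 over the 4 libraries.

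Galectins are lectins that bind beta-galactoside sugars, are found in the cytosol and the nucleus, and leave the cell by an unconventional route to cross-link glycoproteins on cell surfaces. Annexins bind acidic phospholipids of membranes when calcium rises. S100 proteins are small EF-hand calcium sensors that work by binding partners, among them annexins, and S100A10 is the exception that no longer needs calcium and forms a tetramer with annexin A2. In T cells, galectin-1, *Anxa1*, *S100a4*, *S100a6* and *S100a10* are known as genes of effector, memory and innate-like cells more than of naive cells, and galectin-3 and annexin A2 are abundant in myeloid cells.

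Positions are on GRCm38. *S100a4* (chromosome 3 from 90603771 to 90606045) and *S100a6* (chromosome 3 from 90612882 to 90624181) belong to the main S100 cluster, with 6836 bases and *S100a5* between them. *S100a10* (chromosome 3 from 93555080 to 93564643) lies apart from it, 28792 bases from *S100a11*. *Anxa5* is on chromosome 3 as well, *Anxa6* and *Lgals9* on chromosome 11, *Anxa1* on 19, *Anxa2* on 9, *Lgals1* on 15 and *Lgals3* on 14. Of the exonic bases of *S100a4*, 51.7% are shared with a gene annotated on the same strand, *Gm42674*, and of those of *Anxa2* 2.6% with an antisense gene, *Gm16144*, and neither of these has a row in the table. No other annotated transcript matched a transcript of the 10 genes at 95% identity or more over at least 200 bases.

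Promoter windows were at hand in RefSeq (GRCm38.p6) for 7 of the 10 genes, from 250 bases before to 50 bases after the annotated start. Shown first are those of the 5 genes with both old libraries above both young ones on each of the 3 scales described below, and then that of *Lgals9*, whose ages overlapped. Capitals mark letters that match a TATA box (TATAAA), a GC box (GGGCGG), an AP-1 site (TGANTCA) or an ETS-type sequence (GAGGAAG) on either strand. Shorter forms of these were not searched for. No match of one motif overlapped a match of another.
*Lgals3*, chr14:47373610-47373909, plus strand: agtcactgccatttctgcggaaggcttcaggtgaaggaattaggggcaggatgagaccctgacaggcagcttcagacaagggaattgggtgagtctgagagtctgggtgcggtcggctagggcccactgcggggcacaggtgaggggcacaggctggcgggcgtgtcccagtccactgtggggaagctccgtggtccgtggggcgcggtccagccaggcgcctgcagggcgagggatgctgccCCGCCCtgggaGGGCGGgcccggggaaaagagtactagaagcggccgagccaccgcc
*Anxa2*, chr9:69453433-69453732, plus strand: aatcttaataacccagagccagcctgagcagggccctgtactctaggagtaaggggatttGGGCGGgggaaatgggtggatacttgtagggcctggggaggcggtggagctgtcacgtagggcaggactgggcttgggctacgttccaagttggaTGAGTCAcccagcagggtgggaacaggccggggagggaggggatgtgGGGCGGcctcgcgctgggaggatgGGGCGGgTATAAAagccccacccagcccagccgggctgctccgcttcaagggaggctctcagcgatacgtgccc
*Anxa5*, chr3:36475838-36476137, minus strand: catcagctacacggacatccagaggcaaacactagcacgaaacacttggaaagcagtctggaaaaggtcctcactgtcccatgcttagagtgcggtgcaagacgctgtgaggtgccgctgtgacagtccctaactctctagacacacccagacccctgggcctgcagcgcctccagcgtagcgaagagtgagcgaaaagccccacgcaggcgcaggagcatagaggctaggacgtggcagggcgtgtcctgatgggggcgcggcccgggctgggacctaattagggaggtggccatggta
*S100a4*, chr3:90603520-90603819, plus strand: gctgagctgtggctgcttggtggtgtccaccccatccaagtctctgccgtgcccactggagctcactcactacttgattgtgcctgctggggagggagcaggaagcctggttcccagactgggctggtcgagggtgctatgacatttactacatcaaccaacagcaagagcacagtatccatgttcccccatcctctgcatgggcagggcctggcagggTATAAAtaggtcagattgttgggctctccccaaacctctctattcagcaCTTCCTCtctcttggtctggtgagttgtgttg
*S100a6*, chr3:90612644-90612943, plus strand: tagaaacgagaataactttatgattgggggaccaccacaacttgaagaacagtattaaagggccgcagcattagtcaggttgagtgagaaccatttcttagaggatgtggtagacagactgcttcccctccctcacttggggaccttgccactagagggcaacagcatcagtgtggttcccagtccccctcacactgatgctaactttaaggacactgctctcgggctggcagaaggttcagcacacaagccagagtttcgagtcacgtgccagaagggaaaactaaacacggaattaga
*Lgals9*, chr11:78984875-78985174, minus strand: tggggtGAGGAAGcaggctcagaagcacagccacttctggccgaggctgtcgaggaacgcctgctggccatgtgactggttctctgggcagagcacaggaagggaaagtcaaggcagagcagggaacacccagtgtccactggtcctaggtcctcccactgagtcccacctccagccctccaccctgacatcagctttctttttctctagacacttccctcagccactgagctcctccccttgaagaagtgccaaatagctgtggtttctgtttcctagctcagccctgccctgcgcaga
The windows of the 5 genes had no motif in common. *Anxa2* held 1 TATA box at position -17 from the start, 3 GC boxes and 1 AP-1 site at position -95. *Lgals3* held 2 GC boxes and no TATA box, and *S100a4* held 1 TATA box at position -31 and 1 ETS-type sequence. *Anxa5* and *S100a6* held none of the motifs in the full forms searched for. Over the 32851 promoter windows in the same table, 13.6% held the TATA box, 35.7% the GC box, 7.8% the AP-1 site and 13.6% the ETS-type sequence. A match of letters is a description of the window and not evidence of a bound site.

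**Figure D1:**
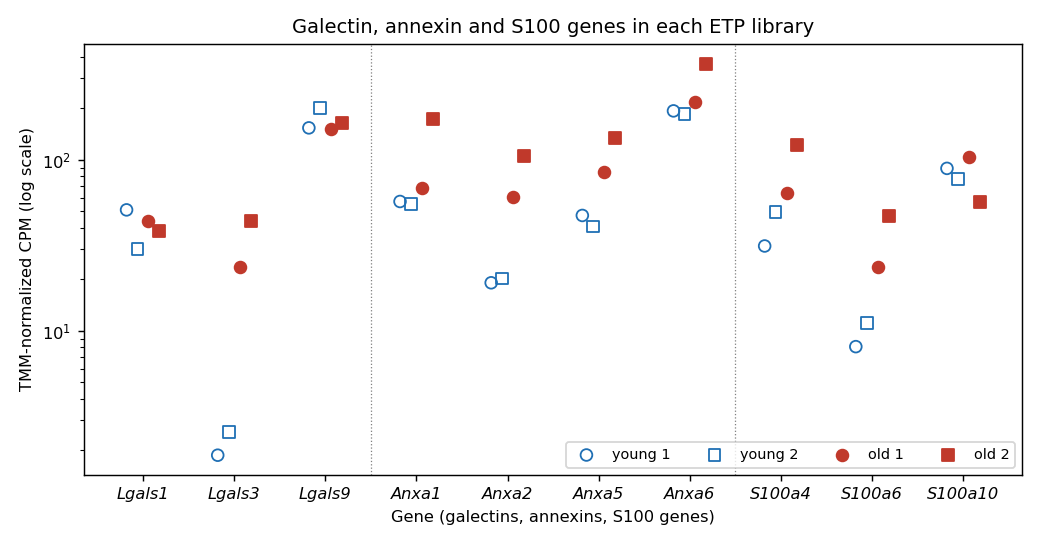
TMM-normalized CPM of the 10 genes in each library, on a log scale, with open symbols for young and filled symbols for old ETP, and circles and squares for replicates 1 and 2. *Lgals3* has the widest gap between the ages, the 4 annexins and *S100a4* and *S100a6* have both old points above both young points, and the points of *Lgals1*, *Lgals9* and *S100a10* overlap.

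*Lgals3* encodes galectin-3, the chimera-type galectin with a collagen-like tail. It had 32 and 16 fragments in young replicates 1 and 2 and 282 and 201 in old replicates 1 and 2. These are 1.87 and 2.56 normalized CPM in young against 23.4 and 43.8 in old ETP, with exact 95% Poisson intervals of 1.28 to 2.64 and 1.46 to 4.16 in young and 20.8 to 26.3 and 37.9 to 50.3 in old ETP, which cover counting error only. Both old libraries lay above both young libraries on this scale, and the mean was 15.2 times as high in old ETP (33.6 ± 14.4, SD, n = 2) as in young ETP (2.22 ± 0.488). All 10 genes passed the filter on low values (an FPKM of at least 1 in 2 libraries), *Lgals3* through the old libraries alone, so its low place among tested genes in young ETP follows from the filter. In FPKM, the level per transcript length, it ranked at the 56.5 and 75.4 percentile of tested genes in the old libraries.

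The other galectins of the list had no such gap between the ages. *Lgals1* encodes galectin-1, a prototype galectin that can induce death of thymocytes and activated T cells, and was at 50.9 and 30.1 normalized CPM in young against 43.8 and 38.6 in old ETP. Both old values lay between the young values, and the log2 fold change from young to old was 0.02 (standard error 0.35, adjusted p = 0.999 in the quasi-likelihood test of edgeR). *Lgals9* encodes galectin-9, a tandem-repeat galectin and ligand of TIM-3, and was at 154 and 200 in young against 151 and 164 in old ETP. The old libraries lay below and between the young ones, with a log2 fold change of -0.16 (standard error 0.27, adjusted p = 0.999 from edgeR). Both estimates changed sign when single libraries were left out, running from -0.30 to 0.45 for *Lgals1* and from -0.34 to 0.04 for *Lgals9*.
Within a library, where no scaling between libraries enters, the FPKM of *Lgals3* was 0.0180 and 0.0432 times that of *Lgals1* in young against 0.263 and 0.578 times in old ETP. Against *Lgals9* the ratios were 0.0135 and 0.0141 in young against 0.170 and 0.294 in old ETP. Of the summed FPKM of 9 galectin genes, *Lgals3* took 0.626% and 0.810% in young against 7.82% and 13.8% in old ETP, while *Lgals9* took the most in every library, from 46.1% to 57.4%.

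**Figure D2:**
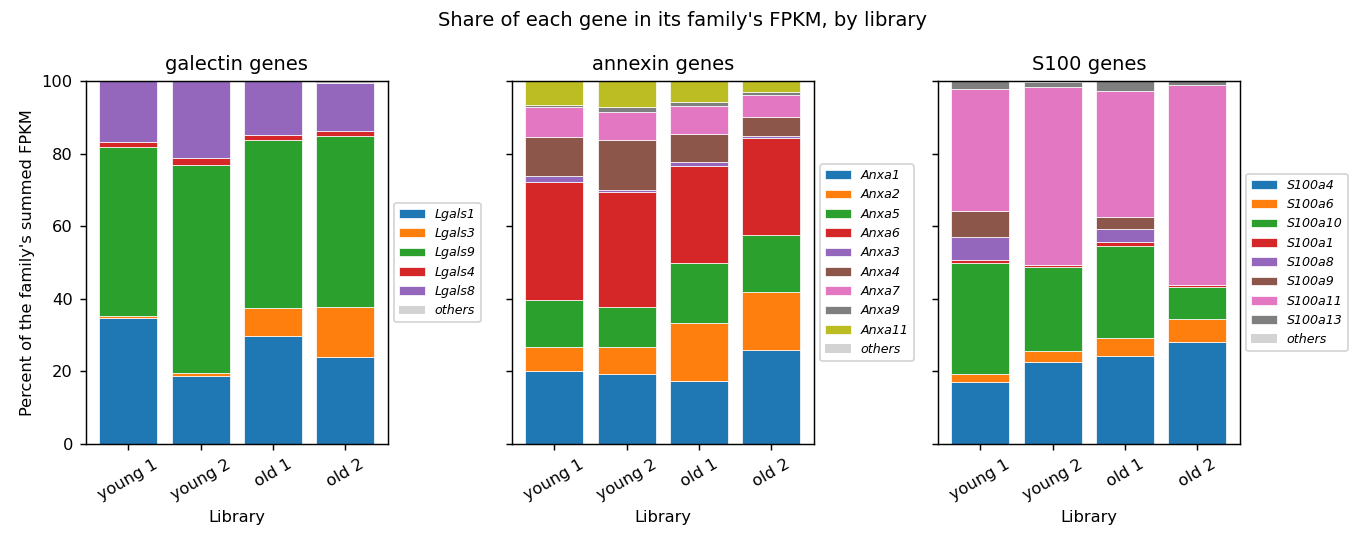
Percent of each family's summed FPKM taken by each of its genes, stacked to 100 for each library, with the genes outside the filter on low values pooled as others. *Lgals3* takes 0.626% and 0.810% of the galectins in young against 7.82% and 13.8% in old ETP, and *Anxa2* goes from 6.82% and 7.21% of the annexins in young to 15.8% and 16.1% in old ETP.

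All 4 annexins of the list had higher normalized CPM in both old than in both young libraries. *Anxa2* encodes annexin A2, which links membranes to actin and, with S100A10, binds plasminogen at the cell surface. It was at 19.1 and 20.2 in young against 60.8 and 105.7 in old ETP, so that the young libraries were close together and the old ones spread. The mean was 4.24 times as high in old ETP, giving a log2 fold change of 2.08 (standard error 0.36, adjusted p = 0.347 from edgeR). *Anxa5* encodes annexin A5, which binds exposed phosphatidylserine, and was at 47.2 and 40.7 in young against 84.2 and 133.8 in old ETP. Its log2 fold change was 1.31 (standard error 0.32, adjusted p = 0.442 from edgeR).
For the other two annexins the gap hung on old replicate 2. *Anxa1* encodes annexin A1, a ligand of formyl peptide receptors that dampens inflammation, and was at 57.0 and 55.3 in young but 68.7 and 172.5 in old ETP. Its log2 fold change of 1.10 (standard error 0.47, adjusted p = 0.977 from edgeR) dropped to 0.26 without old replicate 2. *Anxa6* encodes annexin A6, the member with the largest core, which binds cholesterol-rich membranes, and was at 193 and 185 in young against 218 and 365 in old ETP. Its log2 fold change was 0.62 (standard error 0.33, adjusted p = 0.999 from edgeR) and 0.18 without old replicate 2. In FPKM the ages overlapped for both, with *Anxa1* at 23.4 and 13.3 in young against 22.4 and 34.8 in old ETP, and *Anxa6* at 37.8 and 21.7 in young against 34.0 and 35.8 in old ETP.

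The S100 genes divided. *S100a6* encodes calcyclin, a partner of annexins and of the ubiquitin ligase adaptor CACYBP, and was at 8.08 and 11.1 normalized CPM in young against 23.4 and 46.6 in old ETP. Both old libraries lay above both young ones, with a log2 fold change of 1.87 (standard error 0.46, adjusted p = 0.44 from edgeR). *S100a4*, whose product binds non-muscle myosin and is linked to cell motility, was at 31.3 and 49.5 in young against 63.6 and 121 in old ETP. The ages did not overlap, and the log2 fold change was 1.19 (standard error 0.42, adjusted p = 0.798 from edgeR) and 0.64 without old replicate 2.
*S100a10* encodes p11, the light chain of the annexin A2 tetramer, and was at 89.0 and 77.4 in young against 103.7 and 56.6 in old ETP. The old libraries fell on either side of the young ones, and the log2 fold change was -0.05 (standard error 0.36, adjusted p = 0.999 from edgeR), at 0.29 without old replicate 2 and -0.52 without old replicate 1. *S100a10* and *Lgals1* were the 2 of the 10 genes with a lower level in old replicate 2 than in old replicate 1, at 0.546 and 0.880 times.
The balance between *S100a10* and its partner gene differed by library. The FPKM of *S100a10* was 13 and 10.1 times that of *Anxa2* in young against 4.66 and 1.40 times in old ETP, and both old ratios lay below both young ratios. The FPKM of *S100a4* relative to *S100a10* was 0.559 and 0.967 in young against 0.959 and 3.22 in old ETP, where old replicate 1 lay just under young replicate 2.

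Per transcript length, *S100a10* had the highest FPKM of the 10 genes in both young libraries and old replicate 1 (103, 49.9 and 93.9), and *S100a4* in old replicate 2 (97.6, against 30.3 for *S100a10*). *Lgals3* had the lowest FPKM of the 10 genes in each library, from 0.627 and 0.778 in young to 7.68 and 8.95 in old ETP. *Anxa2* ranked at the 49.99 and 50.8 percentile of tested genes in FPKM in the young and at the 84.0 and 92.4 percentile in the old libraries. *S100a6* likewise ranked at the 50.2 and 58.7 percentile in young and at the 82.1 and 92.4 percentile in old ETP.

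Over the list, 8 of the 10 genes had a higher estimate in old ETP (median log2 fold change 1.15), where 46.6% of all 10080 tested genes had a higher estimate and their median was -0.03. Both old libraries lay above both young libraries in normalized CPM for 7 of the 10 genes, against 16.1% of all tested genes. The genes were chosen with this contrast in view, so these counts describe the list and nothing is drawn from them. In FPKM, and in FPKM rescaled to equal library sums, the genes with both old libraries above both young ones were 5, namely *Lgals3*, *Anxa2*, *Anxa5*, *S100a4* and *S100a6*, against 5.74% of all tested genes in FPKM and 11.4% in rescaled FPKM. In these 5 genes old replicate 2 was 1.59 to 1.99 times as high as old replicate 1 in normalized CPM. At an adjusted p under 0.05, edgeR called 0 of the 10080 tested genes in either direction (0%), so none of the members passed. Of the 9 members other than *Lgals3*, it had *Anxa2*, *Anxa5*, *S100a4* and *S100a6* higher in old ETP at an unadjusted p under 0.05, where 4.65% of tested genes were. DESeq2 on the same counts called *Anxa2* (adjusted p = 0.000327) and *S100a6* (adjusted p = 0.0192) higher in old ETP out of these 9, and it called 2.08% of tested genes higher. For 1 gene in 2 + 2 libraries, the smallest two-sided p of an exact permutation test is 0.333.

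**Figure D3:**
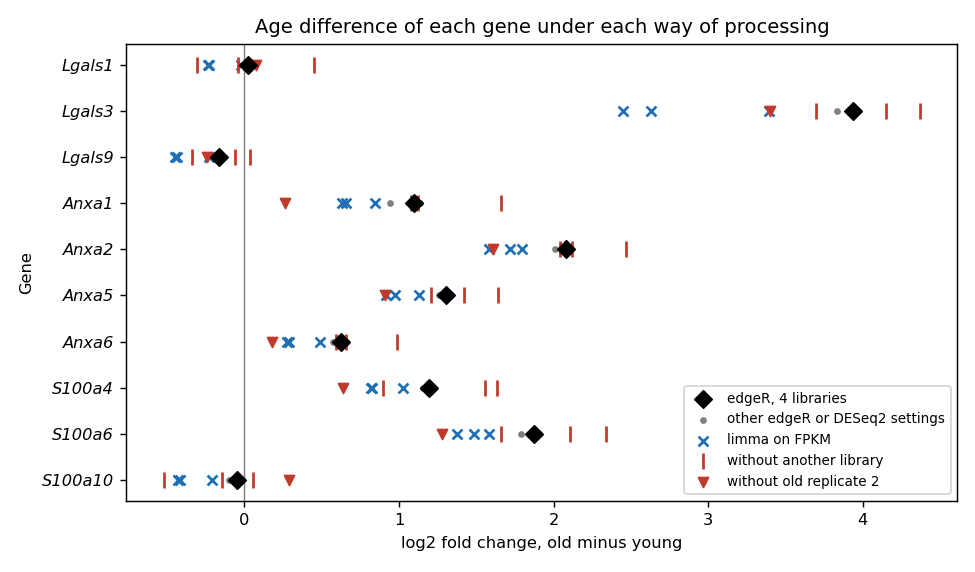
Log2 fold change from young to old ETP of each of the 10 genes, with the edgeR estimate from 4 libraries as a diamond, the fit without old replicate 2 as a triangle, fits without another library as bars, limma on FPKM as crosses and other settings as dots. *Lgals3*, *Anxa2*, *Anxa5*, *S100a4* and *S100a6* stay above 0.6 throughout, *Anxa1* and *Anxa6* approach 0 without old replicate 2, and *Lgals1*, *Lgals9* and *S100a10* lie on both sides of 0.

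The rest of the 3 families was taken by name, without regard to level. Of 29 further genes 13 were tested, 8 with a higher and 5 with a lower estimate in old ETP (median log2 fold change 0.14, but -0.119 by limma on log2(FPKM + 1), where the median of all tested genes was -0.27), and edgeR and DESeq2 called 0 of them, with 0 at an unadjusted p under 0.05. Among the galectins, *Lgals8*, which encodes a tandem-repeat galectin that marks damaged vesicles, was at 113 and 149 normalized CPM in young against 100 and 91.7 in old ETP, giving a log2 fold change of -0.45 (standard error 0.27). *Lgals4* was at 4.62 and 5.77 in young against 4.41 and 5.01 in old ETP. *Lgals3bp*, counted here by its name, encodes a secreted glycoprotein bound by galectin-3 and is not itself a galectin. Its levels were 251 and 264 in young against 314 and 357 in old ETP. Of the annexins, *Anxa7* had a log2 fold change of 0.64 (standard error 0.27), *Anxa9* of 0.58, *Anxa11* of 0.14, *Anxa3* of 0.01 and *Anxa4* of -0.07.
*S100a11*, whose product is a partner of annexin A1, was at 62.4 and 109 in young against 92.2 and 240 in old ETP, and the ages overlapped. It took the largest share of the summed FPKM of 16 S100 genes in each library, from 33.4% to 55.0%. *S100a1* and *S100a13*, at the edge of the main cluster, had low levels with log2 fold changes of 1.27 and 0.73. *S100a8* and *S100a9*, which encode calprotectin of neutrophils and monocytes, were found in the replicate 1 libraries of both ages, at 6.90 and 0.160 for *S100a8* and 12.8 and 0 for *S100a9* in young and at 5.32 and 0 and 8.73 and 0 in old replicates 1 and 2. A further 7 genes of the families, *Lgals2*, *Lgals7*, *Anxa8*, *Anxa10*, *S100a7a*, *S100a14* and *S100z*, had 0 fragments in all 4 libraries, and the upper limit that 0 fragments leave, taken as 3 counts, was 0.176 to 0.654 CPM.

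Of 13 tested genes of partners and receptors, 10 were estimated higher and 3 lower in old ETP (median 0.11, but -0.174 by limma on log2(FPKM + 1)), and none passed edgeR. In that limma fit the median of all tested genes was -0.27. *Ahnak*, which encodes a giant scaffold protein that docks on the annexin A2 and S100A10 tetramer, was at 140 and 360 normalized CPM in young against 605 and 1602 in old ETP, giving a log2 fold change of 2.14 (standard error 0.66, adjusted p = 0.653 from edgeR and 0.0214 from DESeq2). *Havcr2*, which encodes TIM-3, a receptor bound by galectin-9, was at 56.5 and 69.4 in young against 101 and 377 in old ETP (log2 fold change 1.92, standard error 0.63, adjusted p = 0.715 from edgeR). In both genes the old libraries lay above the young, and old replicate 2 was 2.65 and 3.72 times as high as old replicate 1. *Cacybp*, the gene of a partner of S100A6, had a log2 fold change of -0.42, and *Xkr8*, whose product exposes the phosphatidylserine that annexin A5 binds, of -0.69. *Myh9*, which encodes a myosin that S100A4 binds, had one of 0.41 and the surface phosphatase gene *Ptprc* one of 0.02. The formyl peptide receptor genes *Fpr1*, *Fpr2* and *Fpr3* had 0 fragments in all 4 libraries.

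Of 28 genes known from effector and innate-like lymphocytes, 19 were tested, 14 with higher and 5 with lower estimates in old ETP (median 0.56). None passed edgeR. At an unadjusted p under 0.05, 8 were higher, against 4.65% of all tested genes, and DESeq2 called 6 higher, against 2.08%. *Il2rb*, a chain of the receptors for IL-2 and IL-15, had a log2 fold change of 3.13, *Cxcr3*, a chemokine receptor gene, of 2.98, *Gzmb*, the gene of granzyme B, of 2.94 and *Id2*, an inhibitor of E proteins, of 2.64 (adjusted p from 0.325 to 0.84 with edgeR). Among the 5 with lower estimates, the transcription factor gene *Zeb2* was at -0.71, the death ligand gene *Fasl* at -0.61, the adhesion gene *Cd48* at -0.59 and the granule gene *Nkg7* at -0.16. The structural genes with the highest levels had estimates of 0.56 for *Vim* and 0.31 for *Tagln2*. Some genes of the list lay under the filter on low values. Of these, the killing gene *Prf1* was at 0.936 and 0.481 in young against 2.08 and 0.871 in old ETP. The receptor gene *Klrg1* had 1 fragment in all. In contrast, *Eomes* was at 0.702 and 0.481 in young against 8.06 and 7.84 in old ETP. *Tbx21* was at 0 and 0 against 1.91 and 3.27, and *Gzma* at 0.819 and 0.481 against 2.24 and 2.61.

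Markers of some other cells had mostly higher estimates in old ETP, and those of others did not. Over 16 markers of conventional dendritic cells, 12 were tested and 11 had higher estimates in old ETP (median 3.04). The summed level of the 16 was 1017 to 1137 normalized CPM in young and 2163 to 5779 in old ETP. In young replicate 1, *Wdfy4* and *Flt3* made up 518 and 279 of the 1017. Old replicate 2 was the highest library for this sum and for *Lgals3*, the annexins, *S100a4* and *S100a6*. The sums of the effector and partner genes above and of the NK and monocyte markers below were highest there too. *Xcr1* and *Clec9a*, which define type 1 dendritic cells, were at 10.2 and 26.7 and at 5.44 and 16.3 in young and at 96.4 and 618 and at 52.6 and 426 in old ETP. Over 16 markers of NK and innate lymphoid cells, 8 of 9 tested genes had higher estimates (median 2.27). Their summed level was 265 to 306 in young and 380 to 434 in old ETP. *Nkg7*, the tested gene with a lower estimate, held 220 and 214 of the sum in young and 231 and 158 in old ETP. *Klrk1* was at 2.11 and 4.16 in young against 17.2 and 71.5 in old ETP, and *Ncr1* at 0.0585 and 0.320 against 8.40 and 7.19. Of these markers, *Gzma*, *Gzmb*, *Prf1*, *Eomes*, *Tbx21*, *Nkg7* and *Ccl5* are also among the effector genes above, so these lists are not independent. *Flt3* is on both the conventional dendritic cell list and the ETP list. For monocytes and macrophages 4 of 5 tested genes had higher estimates, with sums of 235 to 260 in young and 333 to 613 in old ETP. *Cd68* had levels of 4.97 and 11.5 in young against 25.3 and 65.8 in old ETP (log2 fold change 2.48, standard error 0.65). The lower estimate was that of *Csf1r*, at -0.03. Under the filter on low values, the macrophage gene *C1qa* was at 0 in all libraries, but its relatives *C1qb* and *C1qc* were not. *C1qb* reached 2.61 normalized CPM in old replicate 2 and ran from 0 to 0.249 elsewhere. *C1qc* reached 2.18 in that library and ran from 0.0585 to 0.160 elsewhere. According to the methods of the study, the antibodies to lineage markers in the sort included ones to CD3ε, CD8α, NK-1.1, CD11b, Gr-1 and CD45R and named none to CD11c. The sort kept lineage-negative cells. *Cd8a*, the gene of CD8α, is also on the list of conventional dendritic cell markers. The part of dendritic, NK and monocytic cells in the levels of the galectin, annexin and S100 genes was not tested. In bulk RNA a change in the share of a cell type and a change of RNA per cell cannot be told apart.
The other lists had fewer tested genes or medians nearer 0. Their median log2 fold changes were 0.08 for plasmacytoid dendritic cells (7 tested), -0.29 for granulocytes and mast cells (6 tested), 0.13 for mature T cells (7 tested), -0.28 for fibroblasts and endothelium (2 tested), 0.08 for erythroid cells (2 tested), -0.15 for B cells (1 tested) and -1.10 for thymic epithelium (1 tested), and -0.08 for 8 genes of ETP and the sorting gate. The epithelial genes *Krt14* and *Foxn1* were at 0 in all libraries. Under the filter on low values, *Epcam* was at 1.17 and 0.961 normalized CPM in young against 2.24 and 10.7 in old ETP. *Krt18* was at 2.22 and 2.40 in young against 2.33 and 0.871 in old ETP.

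**Figure D4:**
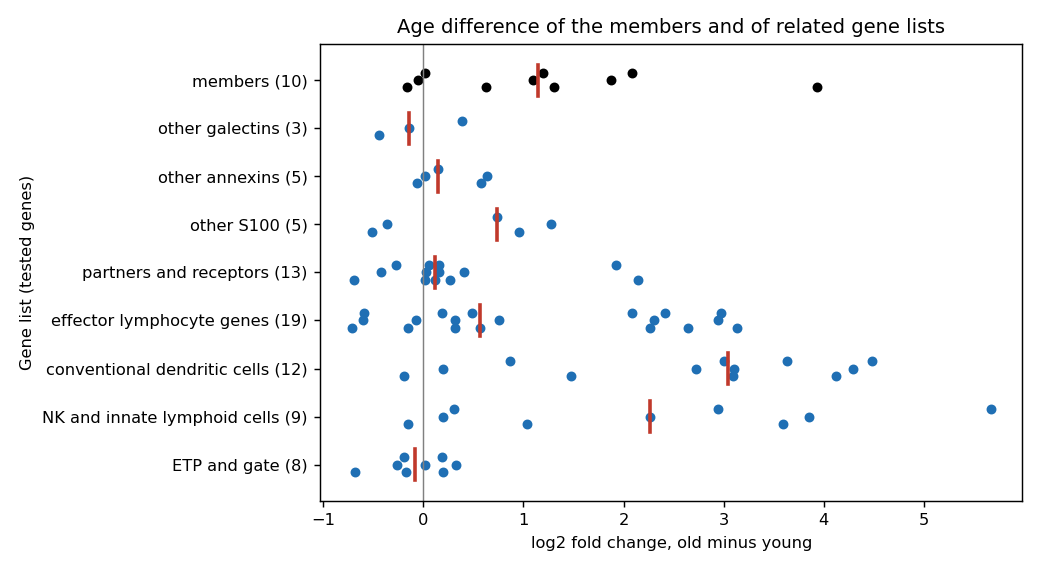
Log2 fold change from young to old ETP for the tested genes of each list, 1 point per gene, with the median as a vertical bar and the number of tested genes in parentheses. The members have a median of 1.15, the other genes of their families lie nearer 0, and the markers of conventional dendritic cells have a median of 3.04.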

How the data were processed

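Whole transcriptome libraries (Nugen Ovation RNA-Seq System v2, paired reads) of 2 young and 2 old samples of ETP were aligned by the authors with STAR 2.3.0 to GRCm38 (mm10). Further tools in the processing notes of the submitters are DESeq 1.12.1, HTSeq 0.5.4p3, Cuffdiff and Cufflinks 2.1.1. The deposited table holds, per gene and library, estimated counts of fragments and the authors' FPKM, which are scaled by transcript length and whose library sums ran from 122998 to 281542. Use of strand, treatment of reads with several alignments and filters are not given in the sources used here. Scaled fragments in the same table were not used. The condition gives the age of a row, and the replicate number (0 and 1 in the table, 1 and 2 here) is a name only.

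Estimated counts were rounded to whole numbers, scaled by TMM, and tested between ages by quasi-likelihood in edgeR 4.0.16 (R 4.3.3) with no further term. Tested were the 10080 genes at an FPKM of 1 or more in 2 or more libraries, and the threshold was 0.05 after Benjamini-Hochberg adjustment. Standard errors come from the fold change and the F statistic. Alternatives were DESeq2 1.42.0, median-of-ratios scaling, other filters, limma 3.58.1 on log2(FPKM + 1) and log2(FPKM + 0.1), the replicate number as a term, leaving out each library and, added after seeing the data, limma on FPKM rescaled to equal library sums. Of the fits, only edgeR without a block was first run on simulated counts. These had the same relative spread for every gene and no likeness of libraries by replicate number. That run therefore does not show how the fits behave on these libraries. Replicates differed beyond counting noise (chi-square per gene 71.1 for young and 83.3 for old), so none was taken as a repeat deposit, which does not show that they are separate biological samples.

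The members, gene lists and tests were chosen with earlier results of these data known. Named genes were the members and, from each list of related genes, the tested genes with the highest absolute fold change (up to 4) and the 2 with the highest level. Genes at 0 fragments, *Xcr1*, *Clec9a*, *C1qa*, *Prf1*, *Klrg1*, *Zeb2*, *Fasl*, *Cd48*, *S100a8* and the exon-sharing genes were chosen for mention with their values in view. Also chosen this way were *Cd8a*, *Csf1r*, *Cd68*, *C1qb*, *C1qc*, *Krt18* and the genes named as shared between lists. The 2 markers with the highest level in each cell list and the 5 genes most like *Lgals3* are named in the closing section. Gene positions are from GENCODE M21 (GRCm38) and promoter sequences from RefSeq (GRCm38.p6), searched for motifs picked after the results were known.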

Additional observations from a re-analysis of the deposited data

How the results depend on the processing

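The higher estimates of *Anxa1*, *Anxa2*, *Anxa5*, *Anxa6*, *S100a4* and *S100a6* kept their direction in 12 of 12 alternatives. These alternatives all draw on the same 4 libraries and are not independent of each other. *Lgals3*, which chose the list, ran from 2.45 to 4.37 on the log2 scale, which is a description only. Against 0 genes higher and 0 lower in old ETP with edgeR, DESeq2 called 210 and 15, edgeR with no filter on low values 474 and 34, and edgeR with the replicate number as a block 578 and 199. Of the 9 members other than *Lgals3*, 2, 3 and 4 were called in these settings, all higher, where 2.08%, 2.77% (of 17112 genes) and 5.73% of tested genes were called higher. Replicate 1 minus replicate 2 correlated between the ages at r = 0.732 over 10080 genes, so libraries of equal number tended to differ alike at both ages. The edgeR fit without a block leaves this part in its error. There are 2 pairs and no label of a shared day or litter, and what libraries of equal number share was not tested. Leaving out single libraries gave 0 to 218 genes higher, 0 to 3 lower and 0 to 2 of these 9 members called, each highest without old replicate 1 (2.16% of tested genes higher). It moved the median log2 fold change of the members from 0.464 (without old replicate 2) to 1.64, that of the rest of the 3 families from 0.096 to 0.609, of partners and receptors from 0.0311 to 0.197 and of effector genes from 0.474 to 0.855. With limma on log2(FPKM + 1), log2(FPKM + 0.1) and rescaled FPKM, the rest of the families had medians of -0.119, -0.0755 and 0.0508 and partners of -0.174, -0.183 and 0.0279. The medians of all tested genes in these fits were -0.270, -0.327 and -0.100. Effector genes had 0.269 and 0.271 in the first 2 of these fits, and 0.33 with an FPKM of at least 5. The cause was not tested. The estimate of *Lgals1* was below 0 in these limma fits (-0.23, -0.23 and -0.022), where the median of all tested genes was lower still. Without single libraries it ran from -0.305 to 0.453. Without single libraries that of *Lgals9* ran from -0.341 to 0.0388 and that of *S100a10* from -0.518 to 0.289. A fit without 1 library takes the lone library of its age to vary like the other age. Depth limits *Lgals3* most, with 16 fragments in young replicate 2.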

Other observations

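The 5 genes with the pattern most like that of *Lgals3* over the 4 libraries, by the root mean square difference of centred log2(CPM + 0.5), were *Sema4f* (0.126), *Ckb* (0.166), *Ccl22* (0.182), *Naaa* (0.185) and *Aif1* (0.201), and *Naaa* is also on the list of conventional dendritic cell markers. *Sema4f* was at 1.46 and 2.56 normalized CPM in young and 24.2 and 39.4 in old ETP, against 1.87, 2.56, 23.4 and 43.8 for *Lgals3*. These genes share the libraries and the scaling with *Lgals3*, and 4 points set the likeness.

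Among the 2 markers with the highest level on each cell list, the dendritic cell genes *Irf8* and *Wdfy4* had log2 fold changes from young to old of 3.0 and 1.48 and the monocyte genes *Ccr2* and *Lyz2* of 2.42 and 0.40. The values were -0.42 and -0.25 for *Tcf4* and *Runx2* (plasmacytoid dendritic cells), 0.30 and -0.16 for *Il18r1* and *Nkg7* (NK and innate lymphoid cells), 0.23 and -0.84 for *Cpa3* and *Mpo* (mast cells and granulocytes) and -0.31 and 0.13 for *Cd6* and *Lat* (mature T cells). They were -0.41 and -0.15 for *Pdgfrb* and *Pecam1* (stroma and endothelium), -0.55 and 0.70 for *Hbb-b1* and *Hbb-b2* (erythroid cells), -0.15 for *Cd79b* (B cells), -1.10 for *Ccl25* (thymic epithelium) and 0.02 and -0.69 for *Kit* and *Notch1* (ETP). *Cr2* and *Epcam* were under the filter on low values.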
